A study of Gallus gallus with 15 samples.

Results

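Liver expression in Hoengseong Yakdak (coded Ya), a Korean native chicken breed, was compared with that in White Leghorn (WL), the egg-laying breed that served as the control. The comparison used 6 of the 15 samples of the series, chosen by their labels: 3 birds of each breed, with 1 array per bird, and positive differences mean higher in Hoengseong Yakdak. All birds were untreated males of 13 weeks, hatched from fertilized eggs of local farms, raised on one university farm and fed without restriction. The other 9 arrays hold 3 birds each of Yeonsan Ogye (Og), Hyunin Black (Bl) and Hwangbong (Hw), which are also Korean native breeds. They entered the model only to estimate the spread between birds and to show where Hoengseong Yakdak stood apart from every other breed. The labels call the birds of a breed biological replicates and give no bird identity, family or farm of origin, so breed cannot be told apart from the flock the eggs came from.

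The liver makes most proteins of the blood plasma, clears and conjugates hormones and foreign compounds, stores glycogen, and turns amino acid nitrogen into uric acid in birds. In chickens it is also the main site of fatty acid synthesis, and it exports the fat in lipoproteins. A whole liver sample holds hepatocytes together with bile duct, endothelial, stellate, immune and blood cells. In such bulk tissue, fewer cells of a type and less RNA per cell cannot be told apart.

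Each array gave 18308 features (the deposited expression units of the array, of which 12300 carried exactly 1 gene symbol), as normalised log2 values between 0.55 and 14.52. Pearson correlations over all features were 0.983 to 0.990 within White Leghorn, 0.985 to 0.988 within Hoengseong Yakdak and 0.977 to 0.984 between the breeds. The liver label was checked against hepatocyte markers, and 7 of 8 were measured. Albumin (ALB) was at 13.85, 13.81 and 13.79 in White Leghorn birds 1 to 3 and at 13.80, 13.75 and 13.78 in Hoengseong Yakdak birds 1 to 3. Transthyretin (TTR), a thyroid hormone carrier, was between 13.50 and 13.58 in all 6 birds. The marker with the largest change was fibrinogen beta (FGB), at -0.16 ± 0.11 (adjusted p = 0.589), and 0 of the 7 passed the test. ALB and TTR were thus close to the highest value of the series, 14.52, in all 6 birds. No detection call accompanied the values. Levels near the low end were therefore not shown to lie above array background, and a difference from such a level may be smaller than the true one.

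Of the 18308 features, 101 (0.552%) differed between the breeds at an adjusted p under 0.05 (limma, two-sided, Benjamini-Hochberg adjustment over all features). Of these, 53 (0.289%) were higher in Hoengseong Yakdak and 48 (0.262%) were lower. The differences ranged in size from 0.50 to 4.71 on the log2 scale, with a median size of 0.98, and 49 of the 101 were at least 1, which is a doubling: 23 rises and 26 falls. All 101 had the 3 birds of one breed on one side of the 3 birds of the other. Over all features, 9.02% had every Hoengseong Yakdak bird above every White Leghorn bird and 8.68% had every bird below, and 12.8% had an unadjusted p under 0.05. Exactly 1 symbol was available for 63 of the 101, which name 62 genes, 35 features higher and 28 lower. The count fell when any bird of either breed was left out, which sets 2 birds against 3, and the size of the fall differed between birds. Leaving out White Leghorn bird 1, 2 or 3 gave 56, 59 and 59 features, and leaving out Hoengseong Yakdak bird 1, 2 or 3 gave 74, 24 and 44. With the 6 arrays of both breeds alone it was 34, of which 26 were among the 101. No called feature changed direction in any of these fits, and 17 of the 101 passed with each of the 15 arrays left out in turn.

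**Figure D1:**
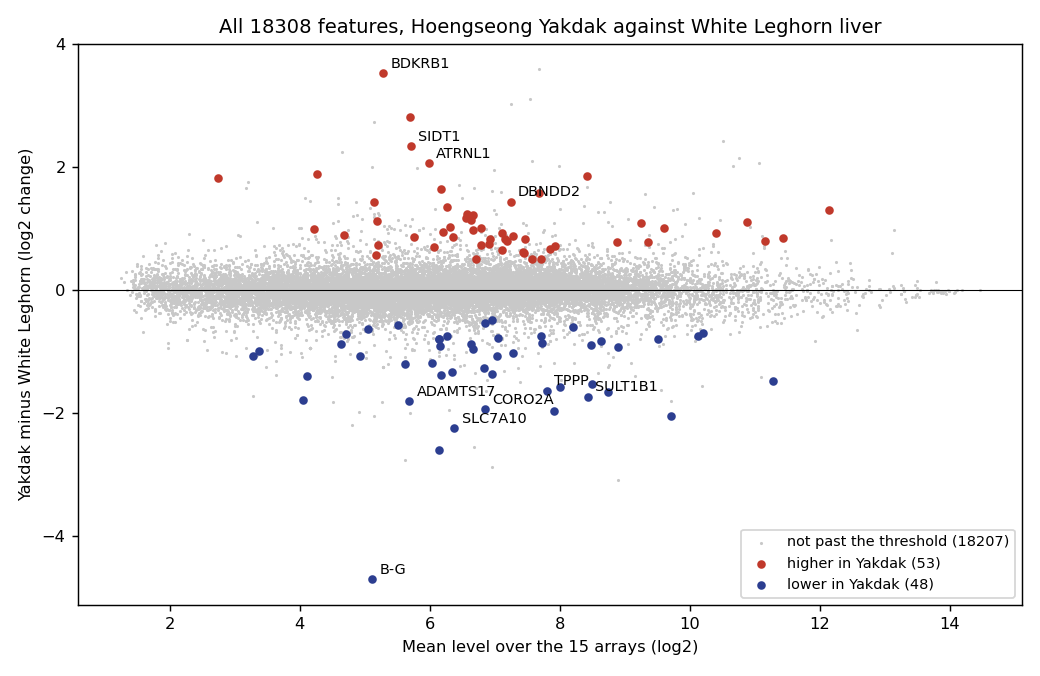
Difference between the breed means (log2, Hoengseong Yakdak minus White Leghorn) against the mean log2 value over the 15 arrays, with 1 point for each of 18308 features. Coloured points are the 53 features higher and the 48 lower at an adjusted p under 0.05; BDKRB1 is the highest coloured point at 3.53 and B-G the lowest at -4.71.

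BDKRB1 and SIDT1 led the named rises. BDKRB1, the B1 receptor for kinin peptides, was at 4.59, 3.94 and 4.45 in White Leghorn birds 1 to 3 and at 7.98, 7.63 and 7.96 in Hoengseong Yakdak birds 1 to 3. The 3 birds of the native breed spanned 0.35 and began 3.04 units above the highest White Leghorn bird. The rise was 3.53 ± 0.46 (log2 difference ± standard error), or 11.5-fold, with an adjusted p of 0.00371. SIDT1, whose protein belongs to the family of the worm double-stranded RNA channel SID-1, was at 5.46, 5.34 and 4.95 against 7.35, 7.76 and 7.65, again without overlap. It rose by 2.34 ± 0.17, or 5.07-fold (adjusted p = 2.34e-05), the smallest adjusted p of the comparison. ATRNL1, a membrane glycoprotein related to attractin, was at 5.69, 5.65 and 5.52 against 7.55, 7.33 and 8.16, with Ya 3 highest. Its rise was 2.06 ± 0.22 (adjusted p = 0.000543), 4.17-fold. DBNDD2, a dysbindin-domain protein that binds a casein kinase in mammals, was at 7.03, 6.91 and 7.0 against 8.36, 8.70 and 8.20, and rose by 1.44 ± 0.15 (adjusted p = 0.000543). The nearest birds of the breeds lay 1.90 apart for SIDT1, 1.64 for ATRNL1 and 1.16 for DBNDD2. LPAR3, a receptor for lysophosphatidic acid, rose by 1.24 ± 0.26 from values of 6.02, 6.66 and 6.14 to 7.80, 7.22 and 7.52 (adjusted p = 0.0493).

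The other named rises among the 12 largest were near 1 log2 unit. SLC22A15, of the organic ion transporter family, was at 6.20, 6.20 and 6.61 in White Leghorn and 7.90, 7.61 and 7.18 in Hoengseong Yakdak, a rise of 1.23 ± 0.23 (adjusted p = 0.0338). ADAM12, a membrane-anchored metalloprotease, was at 5.98, 6.62 and 5.50 against 7.43, 7.0 and 7.16 and rose by 1.17 ± 0.24 (adjusted p = 0.0493), where WL 2 and Ya 2 were 0.39 apart. TMEM200A, a transmembrane protein, rose by 1.14 ± 0.18 (adjusted p = 0.0118). HIGD1C, of the hypoxia-inducible domain family of mitochondrial proteins, was at 8.82, 8.82 and 9.08 against 9.81, 10.14 and 10.05, with all 6 birds tightly grouped by breed. It rose by 1.10 ± 0.18 (adjusted p = 0.0140). FADS6, a member of the fatty acid desaturase family, rose by 1.01 ± 0.20 (adjusted p = 0.0389), and MFSD13A, of the major facilitator superfamily, by 1.01 ± 0.18 (adjusted p = 0.0254). GPR89A, a Golgi protein that in mammals keeps the Golgi acidic, rose by 1.12 ± 0.21 on one feature (adjusted p = 0.0311), while its other feature showed 0.037 ± 0.14 (adjusted p = 0.945), so its features disagree.

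The largest fall was in B-G, an immunoglobulin-superfamily protein of the chicken major histocompatibility complex (MHC), known as a blood group antigen. Its feature read 9.21, 9.65 and 6.06 in White Leghorn birds 1 to 3 and 3.40, 3.73 and 3.65 in Hoengseong Yakdak birds 1 to 3. White Leghorn was split, with WL 3 the lowest and a range of 3.59, yet every Hoengseong Yakdak bird lay at least 2.32 below WL 3. The change was -4.71 ± 0.72, a 26.2-fold fall (adjusted p = 0.0118). With single arrays left out the change ran from -5.84 without WL 3 to -4.04 without WL 2. Yeonsan Ogye was at 3.81 ± 0.18 (SD, n = 3), Hwangbong at 4.44 ± 0.65 and Hyunin Black at 5.39 ± 1.04, and the difference of Hoengseong Yakdak from each of these did not pass (adjusted p = 0.963, 0.706 and 0.356). B-G genes form a family of near-identical, variable copies, so which copy the feature reads, and whether sequence differences under its probes move its value, was not tested.

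SLC7A10, which carries small neutral amino acids across membranes, was at 7.15, 6.82 and 6.72 in White Leghorn and 4.29, 4.39 and 5.26 in Hoengseong Yakdak, with Ya 3 the highest of its breed but still below every White Leghorn bird. It fell by 2.25 ± 0.21 on the log2 scale, or 4.76-fold (adjusted p = 0.000233). CORO2A, a coronin of the actin-binding family, was at 8.14, 7.0 and 7.79 against 5.76, 5.73 and 5.62: the native birds spanned 0.14 and all lay below WL 2. Its change was -1.94 ± 0.33, adjusted p = 0.0216. ADAMTS17, a secreted metalloprotease, changed by -1.81 ± 0.28 (adjusted p = 0.0118) from 6.19, 7.23 and 7.40 to 5.15, 4.69 and 5.54. SULT1B1, a sulfotransferase that in mammals conjugates phenols and thyroid hormones, was at 9.05, 9.22 and 9.04 against 7.35, 7.53 and 7.21, a 3.34-fold fall (adjusted p = 0.0442). Its birds were close within both of these breeds and far apart between them. In Hyunin Black, however, Bl 3 was at 7.08, below every Hoengseong Yakdak bird. The difference from Yeonsan Ogye, Hyunin Black and Hwangbong did not pass (adjusted p = 0.0903, 0.397 and 0.103). TPPP, a promoter of microtubule assembly, fell from 9.18, 9.33 and 8.65 to 7.18, 8.17 and 6.89 (-1.64 ± 0.32, adjusted p = 0.0386), with Ya 2 lying 0.48 below WL 3.

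Ion channel, signalling and cytoskeletal genes followed among the falls. TRPM8, the cold- and menthol-gated cation channel, was at 4.60, 5.19 and 4.97 in White Leghorn and 3.43, 3.89 and 3.26 in Hoengseong Yakdak (-1.39 ± 0.24, adjusted p = 0.0230), low on the array scale in both. GUCY1A2, a subunit of the nitric oxide-sensitive guanylate cyclase, was at 6.44, 7.17 and 6.52 against 5.38, 5.61 and 5.58 and fell 2.27-fold (-1.18 ± 0.19, adjusted p = 0.0169). TUBA8B, an alpha-tubulin, was at 3.75, 3.38 and 3.58 against 2.36, 2.40 and 2.71 (-1.08 ± 0.15, adjusted p = 0.00677), among the lowest levels of any named gene. The remaining members of the 12 largest falls were ASPA (-1.39 ± 0.24, adjusted p = 0.0204), GVINP1 (-1.36 ± 0.20, adjusted p = 0.00907) and NXPH2, a secreted neurexin ligand (-1.08 ± 0.22, adjusted p = 0.0498). The feature annotated SNORD69 also fell, from 6.87, 6.67 and 6.45 to 6.02, 5.93 and 5.79 (-0.75 ± 0.13, adjusted p = 0.0254). The current RefSeq list gives that gene the microRNA type with the synonym gga-mir-1563, so whether the array reads a microRNA precursor or a small nucleolar RNA was not settled, and its sequence was not at hand.

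**Figure D2:**
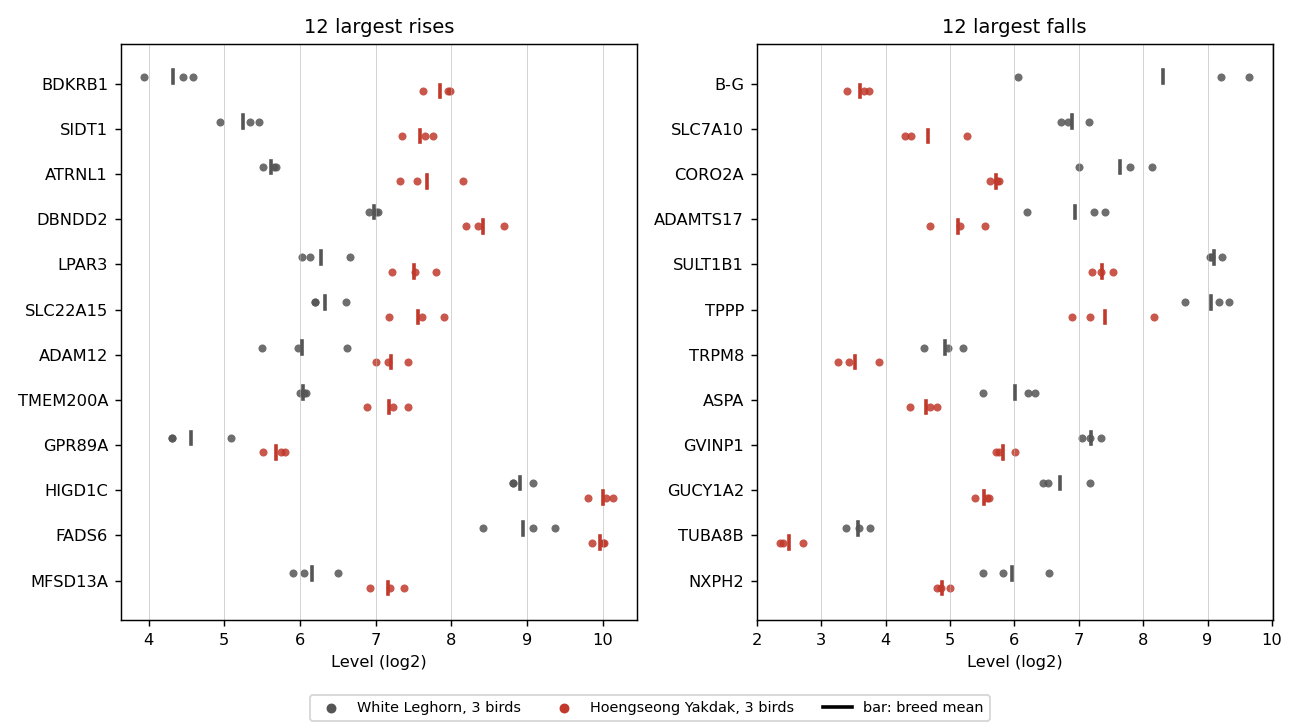
Log2 value of each bird for the 12 largest rises and the 12 largest falls among named features past the threshold, with White Leghorn and Hoengseong Yakdak birds as points and breed means as bars. No overlap between the birds of the breeds was a condition for entry, which all 101 features past the threshold met. The narrowest gap among the falls is seen in TPPP, and the widest spread within a breed in B-G, where WL 3 is at 6.06.

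The calls of these genes held to different degrees when single arrays were left out. SIDT1, SLC7A10, DBNDD2, BDKRB1 and ATRNL1 passed in all 15 such fits (adjusted p up to 0.0179) and also with the 6 arrays alone (adjusted p up to 0.0352). TUBA8B passed in all 15 (adjusted p up to 0.0466) but not with the 6 arrays (0.0546). B-G, GVINP1 and ADAMTS17 were lost only without Ya 2, at adjusted p = 0.0534, 0.0534 and 0.0615. SEMA5A and TMEM200A were lost without Ya 2 or Ya 3 (both up to 0.0593), and GUCY1A2 without Ya 1, Ya 2 or Ya 3 (adjusted p up to 0.0593). ASPA was lost without WL 2, WL 3 or Ya 2 (adjusted p up to 0.0857). SLC22A15 was lost without WL 1, WL 2, Ya 1 or Ya 2 (adjusted p up to 0.121), and TRPM8 without WL 2, WL 3, Ya 1 or Ya 3 (adjusted p up to 0.0938). HIGD1C, MFSD13A and SNORD69 were lost without WL 1, WL 2, Ya 2 or Ya 3 (adjusted p up to 0.0709, 0.103 and 0.103). CORO2A was lost without WL 1, WL 3, Ya 1, Ya 2 or Ya 3 (adjusted p up to 0.0845) and NDUFA8 without WL 1, WL 2, Ya 1, Ya 2 or Ya 3 (adjusted p up to 0.0757). MRPS16 was lost without WL 1, WL 2, WL 3, Ya 1 or Ya 3 (adjusted p up to 0.110) and SPIA5 without WL 1, WL 2, WL 3, Ya 2 or Ya 3 (adjusted p up to 0.103). TPPP was lost without WL 1, WL 2, Bl 1, Hw 2, Ya 1 or Ya 3 (adjusted p up to 0.129) and GPR89A without WL 2, WL 3, Hw 2, Ya 1, Ya 2 or Ya 3 (adjusted p up to 0.122). FADS6 was lost without WL 1, WL 3, Hw 2, Hw 3, Ya 1, Ya 2 or Ya 3 (adjusted p up to 0.127). SULT1B1 passed in 5 of the 15 fits, those without Og 3, Bl 1, Bl 2, Bl 3 or Hw 1 (adjusted p up to 0.129 otherwise). LPAR3 passed in 4, those without WL 2, Bl 1, Bl 2 or Bl 3 (adjusted p up to 0.140 otherwise), and ADAM12 in 3, those without WL 2, Hw 1 or Hw 3 (adjusted p up to 0.126 otherwise). NXPH2 passed in 3, those without WL 3, Bl 2 or Bl 3 (adjusted p up to 0.146 otherwise), and AKR1B1 in 2, those without Og 1 or Bl 3 (adjusted p up to 0.148 otherwise). With the 6 arrays alone, SULT1B1 (0.00561), GVINP1 (0.0162), HIGD1C (0.0445), TMEM200A (0.0493) and NDUFA8 (0.0493) also passed, while the other 20 named genes whose calls are described here did not (adjusted p from 0.0546 to 0.185). Among changes of moderation, weighting and normalization, trended and robust moderation ended the call of SULT1B1 (0.0536), array weights that of ADAM12 (0.0650) and further quantile normalization that of NXPH2 (0.0536).

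A difference from White Leghorn need not be particular to Hoengseong Yakdak, so the breed was also tested against each of the other 4 breeds. Against Yeonsan Ogye 58 features passed (0.317%), against Hyunin Black 54 (0.295%) and against Hwangbong 267 (1.46%). Only 9 features (0.0492%) differed from all 4 breeds in 1 direction, 3 higher and 6 lower, and 7 of them had a symbol. Of the 101 features that differed from White Leghorn, 50 differed from none of the other native breeds at this threshold, 27 from 1, 15 from 2 and 9 from all 3. The number apart from all 4 breeds ranged from 6 to 16 as single arrays were left out, with 16 without Ya 3.

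SIDT1 averaged 7.59 ± 0.21 (SD, n = 3) in Hoengseong Yakdak, against 5.66 ± 0.23 in Yeonsan Ogye, 5.28 ± 0.22 in Hyunin Black and 4.73 ± 0.10 in Hwangbong. Against these 3 breeds its adjusted p was 8.04e-05, 2.86e-05 and 1.66e-06. ATRNL1 averaged 7.68 ± 0.43 against 5.50 to 5.57 in those breeds (adjusted p up to 0.000531), and DBNDD2 8.42 ± 0.25 against 6.86 to 7.01 (up to 0.000655). The other 4 breeds thus formed a narrow band for ATRNL1 and DBNDD2, with Hoengseong Yakdak above it. SLC7A10 averaged 4.65 ± 0.53, against 7.19 ± 0.087, 6.65 ± 0.13 and 6.49 ± 0.19 in Yeonsan Ogye, Hyunin Black and Hwangbong (adjusted p up to 0.000895). ASPA, the enzyme that releases acetate from N-acetylaspartate, was at 4.69, 4.38 and 4.79 in the Hoengseong Yakdak birds and 5.50, 6.31 and 6.22 in the White Leghorn birds. Its means of 6.64 to 6.80 in the other native breeds were higher still, so its difference was smallest against White Leghorn. GVINP1, of the interferon-inducible very large GTPase family, averaged 5.83 ± 0.16 against 6.94 to 7.68 in the other native breeds (adjusted p up to 0.0319). SPIA5 was at 9.63, 9.59 and 9.87 in White Leghorn and 9.27, 8.59 and 8.82 in Hoengseong Yakdak (-0.80 ± 0.15, adjusted p = 0.0254), and its adjusted p against the native breeds reached 0.0479.

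BDKRB1, the largest named rise, did not meet that condition. Its mean was 5.68 ± 0.47 in Yeonsan Ogye, where the difference from Hoengseong Yakdak missed the threshold (adjusted p = 0.0675), and 4.48 ± 0.91 and 4.06 ± 0.96 in Hyunin Black and Hwangbong, where it passed (adjusted p = 0.00583 and 0.00128). For ADAMTS17 the means of the other native breeds, 5.35 to 5.62, lay on the Hoengseong Yakdak side (5.13 ± 0.42) and none differed from it (adjusted p from 0.581 to 0.835). NXPH2 likewise averaged 4.41 to 4.70 in those breeds against 4.88 ± 0.10. TMEM200A averaged 7.18 ± 0.27 in Hoengseong Yakdak and 7.31 ± 0.32 in Hyunin Black (adjusted p = 0.860). It differed from Hwangbong (adjusted p = 0.00326) but not from Yeonsan Ogye (adjusted p = 0.312). TPPP averaged 7.41 ± 0.67, between 6.67 in Hwangbong and 8.26 in Hyunin Black, and differed from none of the native breeds (adjusted p from 0.318 to 0.904). NDUFA8, a subunit of complex I of the respiratory chain, was at 6.82 ± 0.14 in Hoengseong Yakdak and 6.57 ± 0.20 in Hwangbong, below 7.73 ± 0.13 in Yeonsan Ogye (adjusted p = 0.0458).

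**Figure D3:**
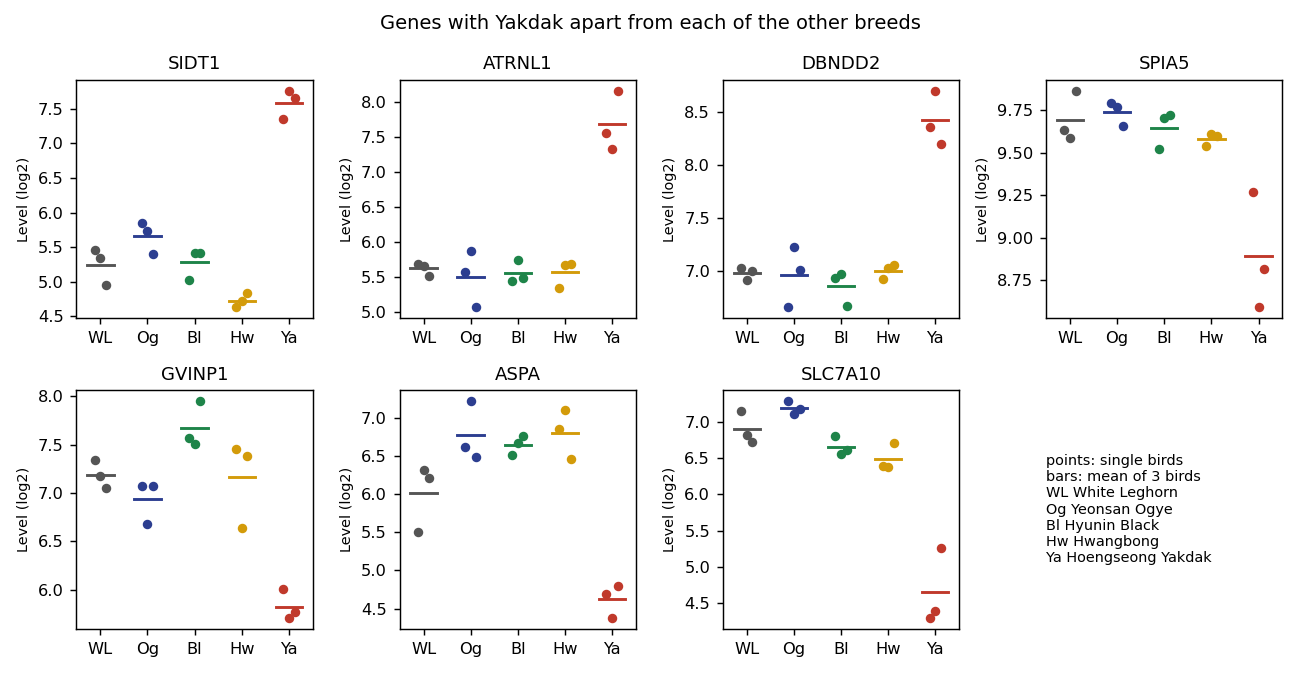
Log2 values of all 15 birds, 3 in each of 5 breeds, for the named genes in which Hoengseong Yakdak differed from all 4 other breeds in 1 direction. SIDT1, ATRNL1 and DBNDD2 lie above every other breed and SLC7A10, ASPA, GVINP1 and SPIA5 below; bars are breed means.

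The other 32 named genes past the threshold changed by 0.50 to 1.08 in size, and all of them are given here rather than a selection. Of the 11 that fell, several are enzymes or kinases. ECE1, the endothelin-converting enzyme, fell on both of its features (-0.79 ± 0.14 and -0.89 ± 0.16). GCH1, the entry enzyme of tetrahydrobiopterin synthesis, changed by -0.84 ± 0.16, and DCTD, deoxycytidylate deaminase, by -0.92 ± 0.13 (adjusted p = 0.00867). VRK2 and MAPK8, both protein kinases, changed by -1.08 ± 0.16 and -0.50 ± 0.10, and BPHL, a serine hydrolase, by -0.75 ± 0.12. MTFP1, a mitochondrial fission protein, changed by -0.88 ± 0.16. The other 4 falls were LRRN1 (-1.0 ± 0.19), TNFAIP2 (-0.93 ± 0.18), CEP192, a centrosome protein (-0.71 ± 0.15 on 1 of its 2 features), and TAF1D, a factor of ribosomal RNA transcription (-0.81 ± 0.14 on 1 of its 5 features).

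Of the 21 genes that rose here, TUBA1A (0.84 ± 0.14) and TUBB6 (0.83 ± 0.14) are tubulins and TTLL7 (0.56 ± 0.12) modifies them. The tubulin TUBA8B and the microtubule protein TPPP, given above, fell. Tubulins were not counted as a list, so these calls are not read as a result about the family. PHKB, a regulatory subunit of the kinase that activates glycogen phosphorylase, rose by 0.60 ± 0.11, and PPA2, the mitochondrial pyrophosphatase, by 0.78 ± 0.12. Among receptors and membrane proteins, P2RY1, an ADP receptor, rose by 0.66 ± 0.14, PTPRU, a receptor phosphatase, by 0.72 ± 0.14 on 1 of its 2 features, and KCNK7, of the potassium channel family, by 0.78 ± 0.12. GPR162 (0.86 ± 0.13, on 1 of 2 features), MFSD2B (0.89 ± 0.17), DIRC2 (0.50 ± 0.087), TMEM18 (0.98 ± 0.18) and NAALAD2 (0.70 ± 0.13) also rose. In protein turnover, PARK2, the ubiquitin ligase parkin, rose by 0.64 ± 0.12 and FBXO21, an F-box protein, by 0.84 ± 0.10 (adjusted p = 0.00232). The others were LIMS1, a focal adhesion adaptor (0.85 ± 0.16), CRTAP, a collagen-modifying protein (0.82 ± 0.17), PGAP1, which remodels lipid anchors (0.93 ± 0.16), BICC1, an RNA-binding protein (0.75 ± 0.12), TBL3 (0.51 ± 0.10) and MPPED2 (0.74 ± 0.14). FBXO21 and DCTD passed in all 15 fits with an array left out but not with the 6 arrays alone (adjusted p = 0.0603 and 0.0734). Among these 15 fits, VRK2, BPHL, PPA2, KCNK7 and GPR162 were lost only in that without Ya 2 (adjusted p up to 0.0673). With the 6 arrays alone, however, VRK2, BPHL, PPA2 and GPR162 did not pass (adjusted p from 0.0579 to 0.131). Of the 33 features of this group, only 2 passed there, those of KCNK7 (0.0481) and MTFP1 (0.0493). The other 25 passed in 1 to 12 of the 15 fits, with adjusted p up to 0.148. CEP192 passed in 2 of 6 other settings that tested it and TTLL7 in 3 of 7.

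To see how whole functions compared, 36 lists of liver and immune genes were counted. A count in a list is read against 0.289% of all features that rose and 0.262% that fell, and against 49% of all features with a change above 0 and a median change of -0.0048. Where counts at an unadjusted p under 0.05 are given, the shares over all features were 6.42% higher and 6.35% lower. No list test was made, and nothing below is called particular to a list. Most lists held 0 or 1 gene past the threshold. In the list of fatty acid and triglyceride synthesis, 21 genes were measured. FADS6 alone rose, 0 fell, and 16 of 21 had a change above 0, with a median of 0.36 and 5 genes (23.8%) at an unadjusted p under 0.05 on the higher side. FADS6 was at 9.08, 9.37 and 8.42 in White Leghorn birds 1 to 3 and 9.86, 10.01 and 10.01 in Hoengseong Yakdak birds 1 to 3. Malic enzyme (ME1), which supplies reducing power for fat synthesis, had the largest change of the list, 2.01 ± 0.54, adjusted p = 0.120. It read 7.75, 9.81 and 10.18 against 10.60, 11.68 and 11.50, with WL 1 lowest, and without WL 1 its change was 1.26 (adjusted p = 0.276). Chosen after its values were seen, ELOVL6, which elongates fatty acids, stood at 10.26, 10.79 and 11.02 against 11.12, 11.49 and 11.63 (0.72 ± 0.18, adjusted p = 0.0890), without overlap. The mean over the list, relative to all 15 arrays, was -0.60, -0.21 and -0.042 in the White Leghorn birds and -0.15, 0.16 and 0.10 in the Hoengseong Yakdak birds, which overlap. WL 1 was the lowest array, and without it the median of the list was 0.040. Bird 1 also had the lowest list mean of its breed in Yeonsan Ogye, Hyunin Black and Hoengseong Yakdak, and bird 2 in Hwangbong.

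Genes that handle lipids otherwise gave few differences. None of 18 genes of cholesterol synthesis and uptake passed (median -0.049, 0 higher and 1 lower at an unadjusted p under 0.05, the median being -0.36 without WL 1 and 0.32 without WL 3), nor did any of 27 of fatty acid oxidation (median -0.045, 1 and 4), 21 of lipoproteins and lipases (median 0.016, 2 and 2) or 20 of bile acid synthesis and transport (median -0.039, 0 and 1). INSIG2, which retains the sterol sensor in the endoplasmic reticulum, changed by -0.49 ± 0.15, adjusted p = 0.178. ABCG5, a sterol exporter, had the largest change in the lipoprotein list: 7.04, 6.94 and 6.26 against 6.11, 5.19 and 4.90, without overlap (-1.35 ± 0.36, adjusted p = 0.122). ANGPTL4, an inhibitor of lipoprotein lipase, ranged from 7.32 to 11.66 within Hoengseong Yakdak alone (1.17 ± 1.32, adjusted p = 0.782). SLCO2B1, an organic anion uptake carrier, was at -0.88 ± 0.27, adjusted p = 0.173. Of 9 yolk precursor and estrogen-response genes, 0 passed (1 higher and 0 lower unadjusted). APOV1, the apolipoprotein of very-low-density yolk particles, had the largest change, from 4.15, 4.0 and 4.57 to 6.96, 5.98 and 5.74 (1.98 ± 0.50, adjusted p = 0.0953), and it passed only without Bl 3 (adjusted p = 0.033). In glucose production and glycolysis, 0 of 30 passed (median 0.042, 2 and 1 unadjusted). PCK1, the rate-setting enzyme of glucose production, was at 8.75, 8.63 and 8.52 against 10.72, 10.11 and 7.50, with Ya 1 and Ya 2 above and Ya 3 below all White Leghorn birds (0.81 ± 1.24, adjusted p = 0.849).

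**Figure D4:**
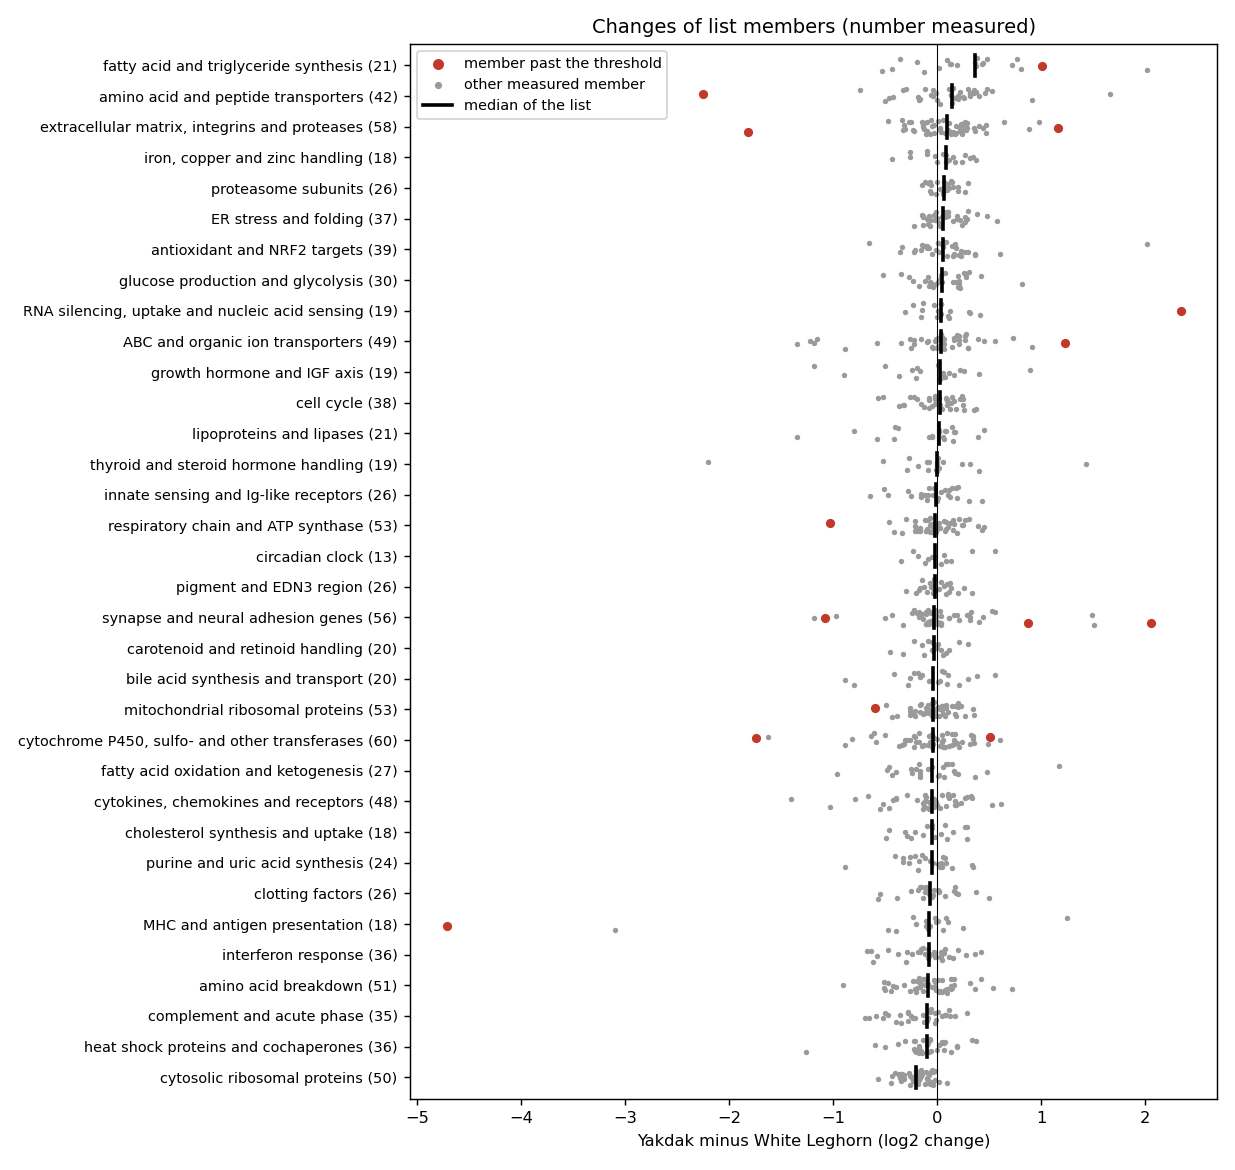
Log2 difference (Hoengseong Yakdak minus White Leghorn) of each measured gene, with 1 line for each list, cell markers aside, with at least 10 measured genes and the list median marked; genes past the threshold are coloured. Most lists centre near 0, the list of fatty acid and triglyceride synthesis at 0.36 and that of cytosolic ribosomal proteins at -0.20.

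Nearly all cytosolic ribosomal proteins had changes below 0, and none passed. Of these 50 genes, whose products build the ribosome, 48 had a change below 0, against 51% of all features. The median was -0.20, 0 passed, 20 of the 50 (40.0%) had an unadjusted p under 0.05 on the lower side against 6.35% of all features, and 27 (54.0%) had every Hoengseong Yakdak bird below every White Leghorn bird, against 8.68%. RPL23A had the largest change, 9.34, 9.31 and 9.47 against 8.66, 8.84 and 8.92 (-0.57 ± 0.12, adjusted p = 0.0506), at the edge of the threshold. It passed without Og 2 (0.0467), Bl 2 (0.0437) or Bl 3 (0.0496). It also passed in 6 of the 8 other settings (adjusted p from 0.0345). It did not pass after median centring of each array, nor with the 6 arrays alone, where its adjusted p was 0.142. RPS25, chosen after its values were seen, was at 10.84, 10.78 and 10.81 against 10.44, 10.46 and 10.42, with the birds spanning 0.062 and 0.039 within the breeds (-0.37 ± 0.082, adjusted p = 0.0658). The mean over the list was 0.063, 0.012 and 0.10 in White Leghorn birds 1 to 3 and -0.22, -0.074 and -0.15 in Hoengseong Yakdak birds 1 to 3. The median stayed between -0.23 and -0.16 with any one array left out. The genes share the 6 birds and are not independent replicates. The median was -0.18 after a further quantile normalization and -0.19 after median centring.

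Mitochondrial genes gave 1 call a list. Of 53 mitochondrial ribosomal proteins, MRPS16 fell, from 8.35, 8.31 and 8.33 to 7.70, 7.93 and 7.56 (-0.60 ± 0.11, adjusted p = 0.0302), 0 rose, and the median was -0.042. The White Leghorn birds spanned 0.042 for MRPS16. Of 53 respiratory chain and ATP synthase genes, NDUFA8 fell, from 7.97, 7.93 and 7.64 to 6.66, 6.93 and 6.85 (-1.03 ± 0.18, adjusted p = 0.0204), and 0 rose. In the lists of folding and turnover, 0 passed: 36 heat shock proteins and cochaperones (median -0.10, 2 higher and 1 lower unadjusted), 37 genes of endoplasmic reticulum stress (median 0.056, 3 and 0) and 26 proteasome subunits (median 0.069, 1 and 0). Single birds moved these medians. Leaving out WL 1 put that of endoplasmic reticulum stress at -0.076 and leaving out WL 2 at 0.17; leaving out WL 3 put that of heat shock proteins at -0.21. HSPB9, a small heat shock protein, had the largest change of these, 8.78, 7.17 and 8.31 against 7.02, 6.97 and 6.51 (-1.26 ± 0.33, adjusted p = 0.103). WL 2 lay close to the native birds, and without it HSPB9 changed by -1.72 (adjusted p = 0.00973). ERN1, a stress sensor, was at 0.58 ± 0.39, adjusted p = 0.593 and PSMA6, a proteasome subunit, at 0.30 ± 0.14, adjusted p = 0.371.

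Amino acid handling showed 1 call. Of 42 amino acid and peptide transporters, SLC7A10 fell, 0 rose, and 26 had a change above 0 (median 0.14). SLC7A7, which exchanges cationic and neutral amino acids and was chosen after its values were seen, was at 5.17, 5.27 and 6.36 against 7.70, 6.84 and 7.24 (1.66 ± 0.39, adjusted p = 0.0749). Its groups did not overlap, and WL 3 was the White Leghorn bird nearest to the native breed. Of 51 genes of amino acid breakdown, 0 passed, 19 had a change above 0 (median -0.093), and 4 were higher and 6 lower at an unadjusted p under 0.05. HAL, which starts histidine breakdown, had the largest change (-0.91 ± 0.35, adjusted p = 0.283), with Ya 1 among the White Leghorn birds. GOT2, the mitochondrial aspartate aminotransferase, and FTCD, also of histidine breakdown, were chosen after their values were seen. GOT2 was at 9.91, 10.35 and 10.19 against 10.79, 10.87 and 10.93 (0.72 ± 0.16, adjusted p = 0.0624), and FTCD at 9.65, 9.64 and 9.73 against 9.16, 9.19 and 9.24 (-0.47 ± 0.12, adjusted p = 0.0966). In each the breeds did not overlap. None of 24 genes of purine and uric acid synthesis passed (1 higher and 1 lower unadjusted), and GDA, guanine deaminase, had the largest change (-0.89 ± 0.24, adjusted p = 0.119).

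Most complement and acute phase genes had changes below 0, and none passed. Of 35 complement and acute phase genes, 26 had a change below 0, 0 passed, and 9 (25.7%) were lower at an unadjusted p under 0.05 against 6.35% of all features. The median was -0.10. ITIH5 had the largest change, 7.10, 7.04 and 7.33 against 5.92, 7.01 and 6.47 (-0.69 ± 0.26, adjusted p = 0.266), with Ya 2 close to WL 2. Named after their values were seen, C8A, a component of the membrane attack complex, was at 10.92, 10.98 and 11.09 against 10.39, 10.15 and 10.67 (-0.59 ± 0.18, adjusted p = 0.163) and C4 at 10.37, 9.85 and 10.30 against 9.78, 9.77 and 9.56 (-0.47 ± 0.14, adjusted p = 0.157). The list means were 0.046, 0.081 and 0.14 in White Leghorn and -0.10, -0.11 and -0.027 in Hoengseong Yakdak. Of 26 clotting factors 0 passed (1 higher and 4 lower unadjusted, median -0.065), and KLKB1, plasma prekallikrein, had the largest change (-0.57 ± 0.18, adjusted p = 0.202). In mammals KLKB1 acts upstream of the kinins that BDKRB1 binds, and whether their changes here are linked was not tested.

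Among immune lists, B-G was the one call, in 18 genes of the MHC and antigen presentation (median -0.075, 1 higher and 3 lower unadjusted). BF2 and BG1, of the same complex, and beta-2 microglobulin were chosen after their values were seen. BF2, a classical class I gene, varied within both breeds, at 11.29, 8.41 and 11.22 against 5.80, 7.95 and 7.87 (-3.10 ± 2.03, adjusted p = 0.582). BG1 varied within White Leghorn only, at 7.36, 4.75 and 5.98 against 7.26, 7.25 and 7.31. Its change was above 0, unlike that of B-G (1.24 ± 0.52, adjusted p = 0.332). Beta-2 microglobulin (B2M), the shared light chain of class I, was at 0.0076 ± 0.12. None of 36 interferon-response genes passed (0 higher and 1 lower unadjusted), none of 26 innate sensing genes (1 and 1), and none of 48 cytokines, chemokines and receptors (1 and 8, the latter 16.7% of the list, median -0.047). DDX60, an interferon-induced helicase, was at -0.68 ± 0.47, adjusted p = 0.607, and TLR1B, a Toll-like receptor, at -0.64 ± 0.27, adjusted p = 0.332. IL1R1, the interleukin-1 receptor, was at 9.53, 10.05 and 10.61 against 8.19, 8.76 and 9.02, without overlap (-1.40 ± 0.42, adjusted p = 0.161). SIDT1 was the one call among 19 genes of RNA silencing, uptake and nucleic acid sensing.

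Of 60 cytochrome P450 and transferase genes, which clear drugs and hormones, 1 rose and 1 fell. AKR1B1, aldose reductase, was at 6.56, 6.41 and 6.56 against 6.94, 7.0 and 7.10 and rose by 0.50 ± 0.10, adjusted p = 0.0493. SULT1B1 fell as given above. SLC22A15 was the one call among 49 ABC and organic ion transporters (median 0.034). None of 39 antioxidant genes passed (3 higher and 3 lower unadjusted), none of 18 of metal handling (3 and 1, STEAP3 -0.44 ± 0.14, adjusted p = 0.206), and none of 20 of carotenoid and retinoid handling (0 and 1, DHRS3 -0.45 ± 0.22, adjusted p = 0.413). In the hormone lists, 0 of 19 genes of the growth hormone axis passed (1 and 3). SOCS2, a feedback inhibitor of growth hormone signalling, was at 8.40, 9.25 and 8.84 against 7.35, 7.36 and 8.23, without overlap (-1.18 ± 0.27, adjusted p = 0.0712). It passed without Ya 3, at -1.47 (adjusted p = 0.0375). Among 19 genes of thyroid and steroid hormone handling, 0 passed (1 and 2). DIO3, which inactivates thyroid hormone, was at 8.15, 5.30 and 5.06 against 4.11, 3.99 and 3.81 (-2.20 ± 0.82, adjusted p = 0.266), with WL 1 highest, and without WL 1 the change was -1.21 (adjusted p = 0.601). The clock genes gave 0 of 13 (2 and 1, ARNTL 0.56 ± 0.26, adjusted p = 0.386), the cell cycle genes 0 of 38 (0 and 2, MCM4 -0.57 ± 0.33, adjusted p = 0.520) and the pigment genes 0 of 26 (1 and 1). EDNRB2, the melanoblast endothelin receptor, led the last (0.33 ± 0.13, adjusted p = 0.301). Of 3 measured genes of the W chromosome, which males lack, 0 passed (0 and 1, ATP5F1AW -0.43 ± 0.15, adjusted p = 0.249). The ATP5F1AW feature still read 6.76, 6.51 and 6.44 against 6.11, 6.35 and 5.97. What it reads in these males was not tested, so its change is not given as one of a W gene.

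Structural lists gave calls in both directions. Of 58 genes of the extracellular matrix, integrins and proteases, ADAM12 rose and ADAMTS17 fell, with a median of 0.091. Of 56 synapse and neural adhesion genes, SEMA5A and ATRNL1 rose and NXPH2 fell, with a median of -0.026 and 9 genes higher (16.1%) and 4 lower unadjusted. SEMA5A, a semaphorin that guides growing axons, was at 7.10, 6.97 and 7.04 against 7.67, 8.0 and 8.06, a rise of 0.87 ± 0.13, adjusted p = 0.0118. It also differed from Hyunin Black (adjusted p = 0.0314) and Hwangbong (adjusted p = 0.00562) but not from Yeonsan Ogye (adjusted p = 0.0648).

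**Figure D5:**
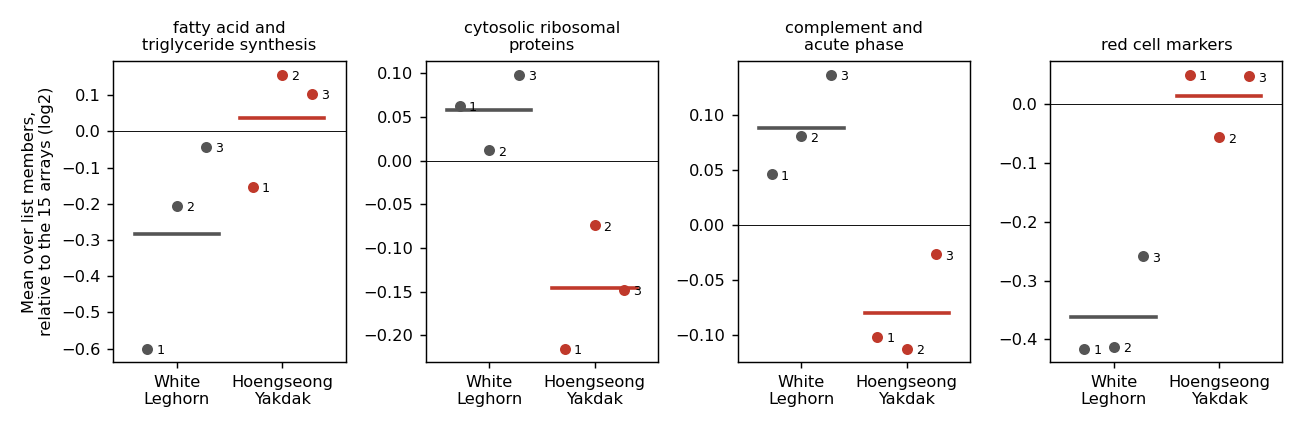
Mean over the measured genes of 4 lists in each bird (log2, relative to the mean of all 15 arrays), with birds numbered and breed means as bars. The Hoengseong Yakdak birds lie below the White Leghorn birds for ribosomal, complement and acute phase genes and above them for red cell markers. For fatty acid and triglyceride synthesis the breeds overlap and WL 1 is lowest at -0.60. Some lists that are not shown also had means without overlap.

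Markers of other cells in the tissue were counted the same way, and 0 of the 14 marker lists held a call. Of 12 red cell markers, 6 were measured, 5 had a change above 0, and 2 were higher and 0 lower at an unadjusted p under 0.05. Their mean was -0.42, -0.41 and -0.26 in White Leghorn against 0.050, -0.056 and 0.047 in Hoengseong Yakdak, without overlap. List means without overlap were not particular to these markers. Those of yolk precursor, antioxidant, RNA silencing and amino acid transporter genes also lay above in Hoengseong Yakdak, and those of MHC genes below. Such a mean can move with 1 gene. The medians of the yolk precursor, RNA silencing and MHC lists were 0.034, 0.037 and -0.075. In the same lists APOV1, SIDT1 and B-G changed by 1.98, 2.34 and -4.71. The medians of the antioxidant and amino acid transporter lists were 0.055 and 0.14. Among single features, 9.02% had every Hoengseong Yakdak bird above every White Leghorn bird and 8.68% had every bird below. HBAD, an alpha-type globin, was at 8.95, 8.85 and 9.06 against 10.25, 10.06 and 9.77 (1.07 ± 0.34, adjusted p = 0.198), and HBA1 at 9.13, 9.12 and 9.46 against 9.74, 9.57 and 10.13 (0.58 ± 0.23, adjusted p = 0.295). The other 4 read between 4.40 and 8.46. The part of blood content in any result above was not tested.

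The mean of the B cell markers lay below in each Hoengseong Yakdak bird (0.18, 0.026 and 0.015 against -0.41, -0.23 and -0.10), also without overlap. Of these 5 markers, 3 had a change below 0 and 1 was lower unadjusted. JCHAIN, the joining chain of secreted antibodies, was at 8.90, 9.17 and 9.51 against 8.32, 8.50 and 8.61 (-0.72 ± 0.34, adjusted p = 0.408) and POU2AF1 had the largest change (-0.79 ± 0.29, adjusted p = 0.257), while EBF1 (0.058 ± 0.17) and CD72 (0.084 ± 0.22) were above 0. Among T and NK cell markers 7 of 9 had a change below 0 (median -0.17, 1 higher and 1 lower unadjusted), though the largest change, in CD247, was above 0 (0.33 ± 0.15, adjusted p = 0.369). Heterophil markers had 3 of 5 above 0 (median 0.048, 1 higher and 1 lower unadjusted), with the largest change in LYZ (-0.53 ± 0.20, adjusted p = 0.283). Macrophage markers had 4 of 6 above 0 (median 0.051), with the largest change in C1QC (0.28 ± 0.17, adjusted p = 0.537), and thrombocyte markers 4 of 5 (median 0.24), with the largest in THBS1 (0.32 ± 0.37, adjusted p = 0.784). In the means of these 4 lists the breeds overlapped.

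Bile duct markers had 4 of 5 above 0 (median 0.20), while EPCAM, with the largest change, was below 0 (-0.58 ± 0.21, adjusted p = 0.262). Endothelial markers had 5 of 6 above 0 (median 0.073, PECAM1 0.29 ± 0.13, adjusted p = 0.398) and stellate cell and fibroblast markers 4 of 6 (median 0.24, RGS5 0.42 ± 0.21, adjusted p = 0.438). Neighbouring tissues were looked for with muscle, pancreas, gut and adipose markers. All 5 muscle and all 5 pancreas markers had changes below 0 (medians -0.23 and -0.16), as did 3 of 5 gut markers (median -0.025), and both adipose markers were above 0. ACTA1 (-0.61 ± 0.41, adjusted p = 0.590), PRSS3 (-0.29 ± 0.22, adjusted p = 0.641), FABP2 (-0.46 ± 0.18, adjusted p = 0.299) and ADIPOQ (0.054 ± 0.14, adjusted p = 0.921) had the largest change of their lists.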

How the data were processed

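Liver RNA of 15 male chickens was hybridised as biotin-labelled cDNA to Affymetrix chicken gene arrays, 1 per bird. The deposited log2 values were produced with the software Affymetrix Expression Console 1.3.1 by RMA (robust multi-array averaging, a between-array normalisation), according to what the submitters' processing notes list, per the labels; the level of summarization was not given in the sources used here. Symbols came from the platform annotation: 1 symbol for 12300 features, several for 256 and none for 5752. A linear model with 5 breed means was fitted to the 15 arrays (R 4.3.3, package limma 3.58.1, moderated by eBayes). It had 10 residual and 3.89 prior degrees of freedom, and p-values were adjusted over all 18308 features. Simulated data were also run through the model, but each feature was drawn independently, so they do not measure the error of the calls here. The number of arrays limits the precision (median standard error 0.15), and permuting 3 against 3 birds exactly could reach no p under 0.1. Comparisons that use the same breed share its arrays.

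The genes and lists were chosen with earlier results of these data known. The rule for named genes took the 12 largest rises and falls past the threshold with a symbol and no overlap between breeds, up to 4 called members per direction of each list (otherwise the member with the largest change), genes apart from all 4 other breeds, microRNA genes past the threshold, and cell markers. A gene with several features was represented in lists by the one with the highest mean. The 50 lists hold 1715 symbols, of which 1163 genes were matched, 46 through an older symbol accepted by hand after the annotation was seen. The labels do not say that replicate numbers pair the birds, and the main model did not use them. A fit with the numbers as a block is given below. The alternatives were another moderation, array weights, normalisation, filters, the 6 arrays alone and leaving out arrays. Scanner files were not used here, and neither were probe sequences, so sequence differences between breeds under the probes were not checked.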

Additional observations from a re-analysis of the deposited data

How the results depend on the processing

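The count of 101 features (53 higher, 48 lower) kept within 1.5 times its size with trended and robust moderation (111), further quantile normalization (115), median centring (107) and without the dimmest features, 33.3% by mean level (136 of 12205). It was 34 (19 higher, 15 lower) with the 6 arrays alone, 163 (91 higher, 72 lower) with array weights and 61 (35 higher, 26 lower) with 1 feature for each of 11528 named genes, where fewer features were tested. With single arrays left out it ranged from 24 to 112, the number higher from 9 to 56 and the number lower from 15 to 57; without Hw 2, 34 were higher. Fits without a bird of either breed set 2 birds against 3. Without the dimmest features, 84 of the 101 were tested, and all 84 passed. B-G, TRPM8, TUBA8B and NXPH2 were among the calls not tested there. The number apart from all 4 breeds was 15 without those dim features and 6 to 16 with arrays left out. The cause of these shifts was not tested.

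With the replicate number as a block 130 features passed. Over all features, the deviations of same-numbered White Leghorn and Hoengseong Yakdak birds correlated at -0.067, -0.086 and 0.027. Of the 3 Hoengseong Yakdak birds, 1 matched its own number best. No pairing was thus seen over all features between these breeds. In the list of cholesterol synthesis and uptake, however, bird 1 had the lowest mean in every breed. Whether the numbers mark a shared order or batch in some genes was not tested. With the block ARNTL newly passed (0.56, adjusted p = 0.0325), bird 3 being the highest in each of the 5 breeds, RPL23A newly passed (adjusted p = 0.0345), and AKR1B1 (0.0619) and SLC22A15 (0.0505) no longer passed.

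Median changes of lists ranged, with single arrays left out, from 0.087 to 0.17 for amino acid and peptide transporters (0.14 with all arrays), 0.024 to 0.11 for antioxidant and NRF2 targets (0.055 with all arrays), -0.044 to 0.066 for clock genes (-0.024 with all arrays), 0.040 to 0.46 for fatty acid and triglyceride synthesis (0.36 with all arrays), -0.10 to 0.0047 for fatty acid oxidation and ketogenesis (-0.045 with all arrays). The range was -0.025 to 0.040 for pigment genes (-0.025 with all arrays), 0.021 to 0.11 for RNA silencing and uptake (0.037 with all arrays), -0.048 to 0.028 for bile acid synthesis and transport (-0.039 with all arrays), 0.037 to 0.11 for glucose production and glycolysis (0.042 with all arrays), -0.16 to -0.10 for complement and acute phase genes (-0.10 with all arrays). The widest were -0.36 to 0.32 for cholesterol synthesis and uptake, and in 14 of 34 lists the median changed sign with some array left out. Without the dim features the median was 0.20 for amino acid transporters, -0.11 for bile acid genes, 0.081 for pigment genes and 0.12 for synapse genes. Of 1601 refitted values of named genes, 1430 kept direction and side of the threshold, 155 no longer passed, 14 newly passed and 2 changed sign: THBS1 (-0.035 without WL 3, range to 0.70) and ADIPOQ (-0.059 without Ya 3, range to 0.16), neither past the threshold. Signal over background was not measured, which limits low values.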

Other observations

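Of the 101 features that differed between the breeds, 38 had no single symbol in the annotation, 18 higher and 20 lower in Hoengseong Yakdak. Of these 38, 9 passed with each of the 15 arrays left out in turn. The largest rise among them, feature 15418611, read 3.43, 4.41 and 5.42 in White Leghorn and 7.26, 6.69 and 7.76 in Hoengseong Yakdak (2.82 ± 0.58, adjusted p = 0.0493). The largest fall, feature 15520445, read 7.27, 6.61 and 7.30 in White Leghorn and 4.22, 4.67 and 4.50 in Hoengseong Yakdak (-2.60 ± 0.34, adjusted p = 0.00381). Feature 15474017 read 10.58, 10.12 and 10.10 in White Leghorn and 8.15, 8.26 and 8.25 in Hoengseong Yakdak (-2.05 ± 0.17, adjusted p = 8.37e-05), and it is 1 of 2 such features in which Hoengseong Yakdak also lay below all 3 other native breeds, whose means were 9.90 to 10.16. Their genes are not named here.

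In the current RefSeq order of protein-coding genes, TUBA8B, which fell, and AKR1B1, which rose, are separated by 2 genes. TAF1D, which fell on 1 feature, and NAALAD2, which rose, are separated by 8. No other named called genes lay within 10 genes of each other. Whether the pairs share a cause was not tested.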
